A study of Mus musculus with 6 samples.

Results

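J-domain proteins of the DNAJ family, the co-chaperones that work with HSP70, were followed through 6 RNA-seq libraries of mouse adipocytes. Members were chosen by symbol, as genes whose symbol starts with Dnaja, Dnajb or Dnajc and a digit. Dnajb9, Dnajb11, Dnajc3, Dnajc10, Dnajc15, Dnajc19 and symbols containing -ps were left out by name. Of 46 matching symbols in the table, 7 were left out this way and 39 remained. They then had to reach a normalized count of 10 in 2 or more libraries, which 34 genes did, out of 14211 genes tested in all. These 34 genes, 4 of class A, 9 of class B and 21 of class C, are the members described here. Dnajc22 and Dnajb13 had stood out in earlier results from the same libraries, so their values are given as a description without a test.

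The cells were primary adipocytes of genotype Ppargc1a(fl/fl), in which the gene for the transcriptional coactivator PGC-1alpha carries loxP sites. All groups carried this genotype, received an adenovirus and an siRNA, and were taken through differentiation before RNA was collected. The first group had Cre virus, whose recombinase excises floxed DNA, with Rbm43 siRNA. The second had GFP virus with Rbm43 siRNA, and the third GFP virus with control siRNA. Rbm43 encodes an RNA-binding protein. Each group had 2 libraries, called biological duplicates by the submitters. Whether they came from separate animals is not given in the sources used here. P-values therefore rest on the spread between these libraries, pooled over the 3 groups and drawn toward a trend across genes. The remaining combination, control siRNA after Cre virus, was not analysed here.

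HSP70 chaperones bind and release unfolded stretches of protein in a cycle driven by ATP. J-domain proteins bring clients to HSP70 and stimulate its ATPase, and nucleotide exchange factors reopen it. Class A and class B members are general folding partners, while many class C members bring HSP70 to one place or task, such as a mitochondrial import channel, an endosome or the ribosome.

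Reads in genes numbered 15775398 to 21961724 per library, and the spread between replicates exceeded sampling noise in each group (chi-square per degree of freedom 1.76 with Cre virus and Rbm43 siRNA, 2.74 with GFP virus and Rbm43 siRNA, 4.11 with GFP virus and control siRNA). Rbm43 had normalized counts of 53.8 and 32.5 with Cre virus and Rbm43 siRNA, 43.7 and 46.6 with GFP virus and Rbm43 siRNA, and 185 and 224 with GFP virus and control siRNA. Ppargc1a had 463 and 469, 399 and 423, and 163 and 202 in the same groups. These Ppargc1a values cover the whole gene, exons that Cre leaves in place included, and are no check of the excision. The virus labels are therefore taken as given.

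Some markers of cell types moved between the groups. The 10 adipocyte markers summed to 293885 to 295796 normalized counts with Cre virus and Rbm43 siRNA, 341697 to 348997 with GFP virus and Rbm43 siRNA, and 259249 to 273527 with GFP virus and control siRNA. Fabp4 and Lpl made up most of these sums, so the sums say little about the other markers. Of the 10 markers, 6 rose and 2 fell with Rbm43 siRNA, 6 fell and 0 rose with Cre virus, and 3 rose and 4 fell when both treatments were compared with neither. Among all genes tested 23.2%, 8.50% and 14.7% were called in these 3 comparisons. The 8 fibroblast markers summed to 306165 to 313397, 287092 to 307312, and 331621 to 340983 in the same groups, and most of these sums was Col1a1. Of 7 tested, 3 fell with Rbm43 siRNA, 0 were called with Cre virus, and 2 fell with both treatments against neither. Macrophage markers summed to 1649 to 1735, 1415 to 1647, and 1650 to 1703. Of these 8, 3 fell with Rbm43 siRNA, 0 were called with Cre virus, and 1 fell with both treatments against neither. Endothelial markers summed to 311 to 348, 274 to 278, and 246 to 248, with 1 of 5 tested called, a rise in cells with both treatments. Epithelial markers summed to 359 to 379, 286 to 392, and 312 to 369. Of these 8, only Krt19 was tested. Epcam, Krt8, Cldn4 and Cldn7 were at 0 with Cre virus and Rbm43 siRNA, Epcam and Cldn4 with GFP virus and Rbm43 siRNA, and Krt8 with GFP virus and control siRNA. In bulk RNA, fewer cells of a type and less RNA per cell cannot be told apart, and the part of these shifts in the results below was not tested.

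Promoters are printed for Dnajb13, Dnaja3 and Dnajc24, and for class A members with a heat shock motif. RefSeq promoters (GRCm38.p6, the mm10 build, 250 bases before to 50 bases after a gene's start) were found for 27 of the 34 members. Dnajc22 and Dnajc11 are among those not in the table. Motifs were searched on both strands, 3 in all. One was AAGGTCA, a core bound by estrogen-related receptors, which are partners of PGC-1alpha. Another was the direct repeat bound by PPARgamma with RXR, AGGTCA then any 1 base then AGGTCA, which can overlap the first. The last was GAANNTTC, a pair of the GAA blocks that make up heat shock elements. Capitals mark matches.
Dnajb13, chr7:100514766-100515065, minus strand: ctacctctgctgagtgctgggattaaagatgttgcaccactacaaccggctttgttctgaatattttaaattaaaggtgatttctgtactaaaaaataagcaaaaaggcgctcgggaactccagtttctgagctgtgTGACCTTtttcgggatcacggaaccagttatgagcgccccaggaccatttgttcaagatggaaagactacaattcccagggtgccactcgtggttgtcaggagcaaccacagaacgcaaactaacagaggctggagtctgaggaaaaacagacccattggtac
Dnaja3, chr16:4683820-4684119, plus strand: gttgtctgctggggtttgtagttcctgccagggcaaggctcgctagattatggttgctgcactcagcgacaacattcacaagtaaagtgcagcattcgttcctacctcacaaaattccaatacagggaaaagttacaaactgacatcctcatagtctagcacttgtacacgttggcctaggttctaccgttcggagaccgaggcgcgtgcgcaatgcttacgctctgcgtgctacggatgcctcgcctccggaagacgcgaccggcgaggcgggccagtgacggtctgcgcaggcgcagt
Dnajc24, chr2:106003500-106003799, minus strand: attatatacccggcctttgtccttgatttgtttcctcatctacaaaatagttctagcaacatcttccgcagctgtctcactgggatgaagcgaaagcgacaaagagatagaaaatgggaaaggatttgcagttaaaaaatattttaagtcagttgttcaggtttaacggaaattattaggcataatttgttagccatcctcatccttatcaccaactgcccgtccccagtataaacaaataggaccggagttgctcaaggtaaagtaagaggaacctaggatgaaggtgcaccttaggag
Dnaja1, chr4:40722218-40722517, plus strand: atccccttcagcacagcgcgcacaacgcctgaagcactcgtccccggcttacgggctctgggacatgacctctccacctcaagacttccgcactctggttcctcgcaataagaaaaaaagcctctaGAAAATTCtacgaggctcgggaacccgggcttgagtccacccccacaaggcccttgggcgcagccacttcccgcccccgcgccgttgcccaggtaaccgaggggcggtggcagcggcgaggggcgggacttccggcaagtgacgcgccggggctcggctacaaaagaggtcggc
Dnaja4, chr9:54699309-54699608, plus strand: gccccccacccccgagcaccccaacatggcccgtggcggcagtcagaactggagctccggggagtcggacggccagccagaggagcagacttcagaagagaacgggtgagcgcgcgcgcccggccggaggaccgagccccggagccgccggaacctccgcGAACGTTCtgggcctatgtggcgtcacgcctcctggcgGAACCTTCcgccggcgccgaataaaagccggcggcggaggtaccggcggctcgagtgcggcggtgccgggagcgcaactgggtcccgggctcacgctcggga

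The AAGGTCA core was in the promoter of 1 of the 27 members, Dnajb13, where its reverse complement TGACCTT starts 113 bases before the gene's start. It was in 5.38% of the 27025 genes with a promoter in the table. The direct repeat was in 0 of the 27 members and in 0.0481% of genes. The heat shock pair was in 4 of 27 members, Dnaja1, Dnaja4, Dnajb6 and Dnajc27, and in 9.04% of genes. In the printed promoter of Dnaja1 it starts 124 bases before the start, and that of Dnaja4 holds it at 90 and at 52 bases before the start. A gene was counted when any of its listed promoters held the motif. The other promoters listed for Dnaja1 and Dnaja4 do not hold it. A match describes these letters in this window and is not a measured binding site. The printed promoters of Dnaja3 and Dnajc24 hold none of the 3 motifs, nor does that of Dnajb14, which is not printed.

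Levels of the members were compared per kilobase of exon, as the mean normalized count over the 6 libraries. Dnaja2, a class A partner of cytosolic HSP70, was the highest at 1223 per kb. Dnajc8, a splicing-associated member, followed at 588, the mitochondrial Dnaja3 at 431, the cysteine string protein Dnajc5 at 376 and Dnaja1 at 324. At the low end were Dnajc22 at 35.5 per kb, Dnajc27 at 24.3, Dnajb13 at 21.5 and Dnajc12 at 9.03. Dnajc22 and Dnajb13 therefore ranked 31 and 33 among the 34 members. All 34 members had a normalized count of at least 10 in every library, so none met the minimum through 1 group alone. The lowest of them by mean count was Dnajc12, a partner of the aromatic amino acid hydroxylases, at 31.7 to 48.7. Outside the minimum were Dnajc6, the neuronal auxilin, with 9 reads in all 6 libraries together, Dnajc5b with 2, Dnajb7 with 1, and Dnajc5g and Dnajb8 with 0. A total of 0 reads is a limit of counting and not proof of absence.

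**Figure D1:**
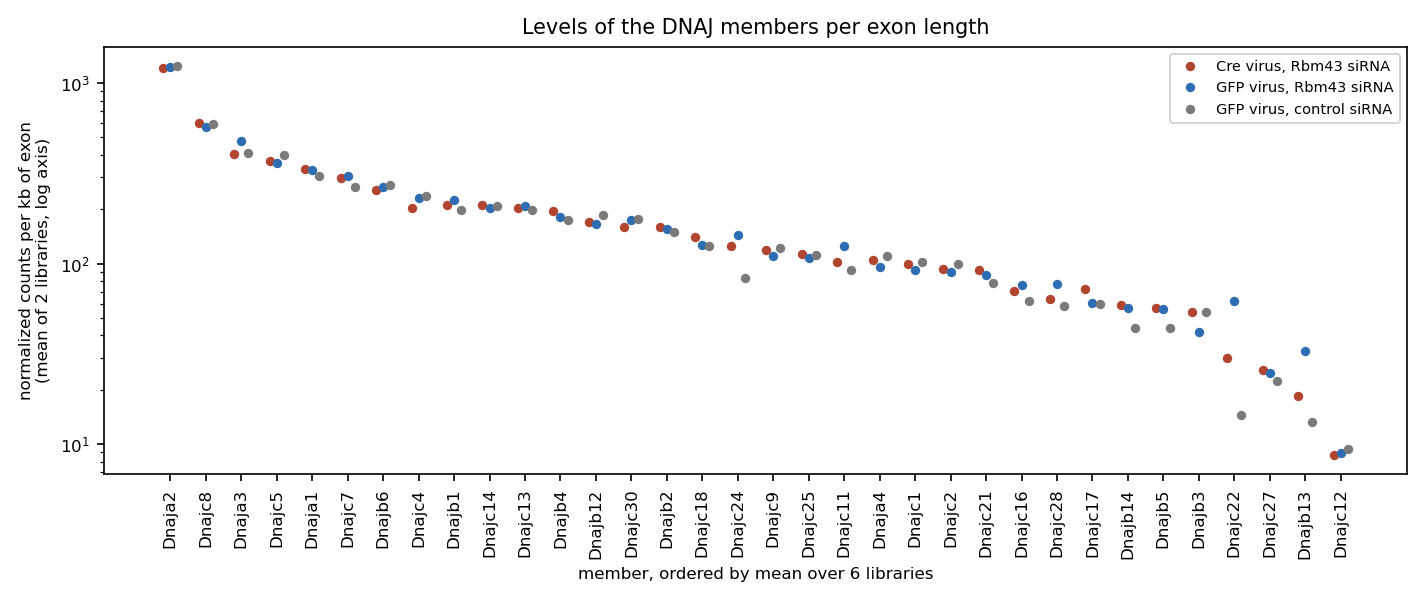
Mean normalized count per kilobase of exon of each of the 34 members (log axis), as 1 point per group of 2 libraries, with members ordered by their mean over 6 libraries. Dnaja2 leads at 1223 per kb, and the points of Dnajc22 and Dnajb13, near the low end, lie farther apart between groups than those of their neighbours.

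The first comparison set Rbm43 siRNA against control siRNA in cells with GFP virus and asks what Rbm43 depletion did to the family. Leaving out Dnajc22 and Dnajb13, which are not counted in any number of called members, 8 of 32 were called higher and 0 lower, or 25% (limma, adjusted p under 0.05 over all genes tested). Among all genes tested 23.2% were called, 13.5% higher and 9.76% lower. Of the 32, 12 had both libraries with Rbm43 siRNA above both with control siRNA, and 8 had both below. Among all genes tested the groups did not overlap in 58.5%, with 29.2% above and 29.2% below, so such a gap between 2 and 2 libraries was common in the whole table. The median log2 fold change was 0.015 over the 32 and −0.01 over all genes tested, and 17 lay above 0 and 15 below. The median size of the change was 0.14 for the members and 0.15 for all genes. With upper-quartile scaling, 8 members rose and 4 fell (Dnaja4, Dnajb12, Dnajc1 and Dnajc5), against 1603 genes that rose and 1861 that fell in the whole table. DESeq2 called 4 members, all higher, and 2035 genes in the whole table. It did not call Dnajc7 (DESeq2 adjusted p = 0.0648), Dnajc28 (0.0851), Dnajc16 (0.0934) and Dnajb5 (0.130). Without GFP virus and Rbm43 siRNA replicate 1, 3 members were called, and without GFP virus and control siRNA replicate 2, 5 were.

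**Figure D2:**
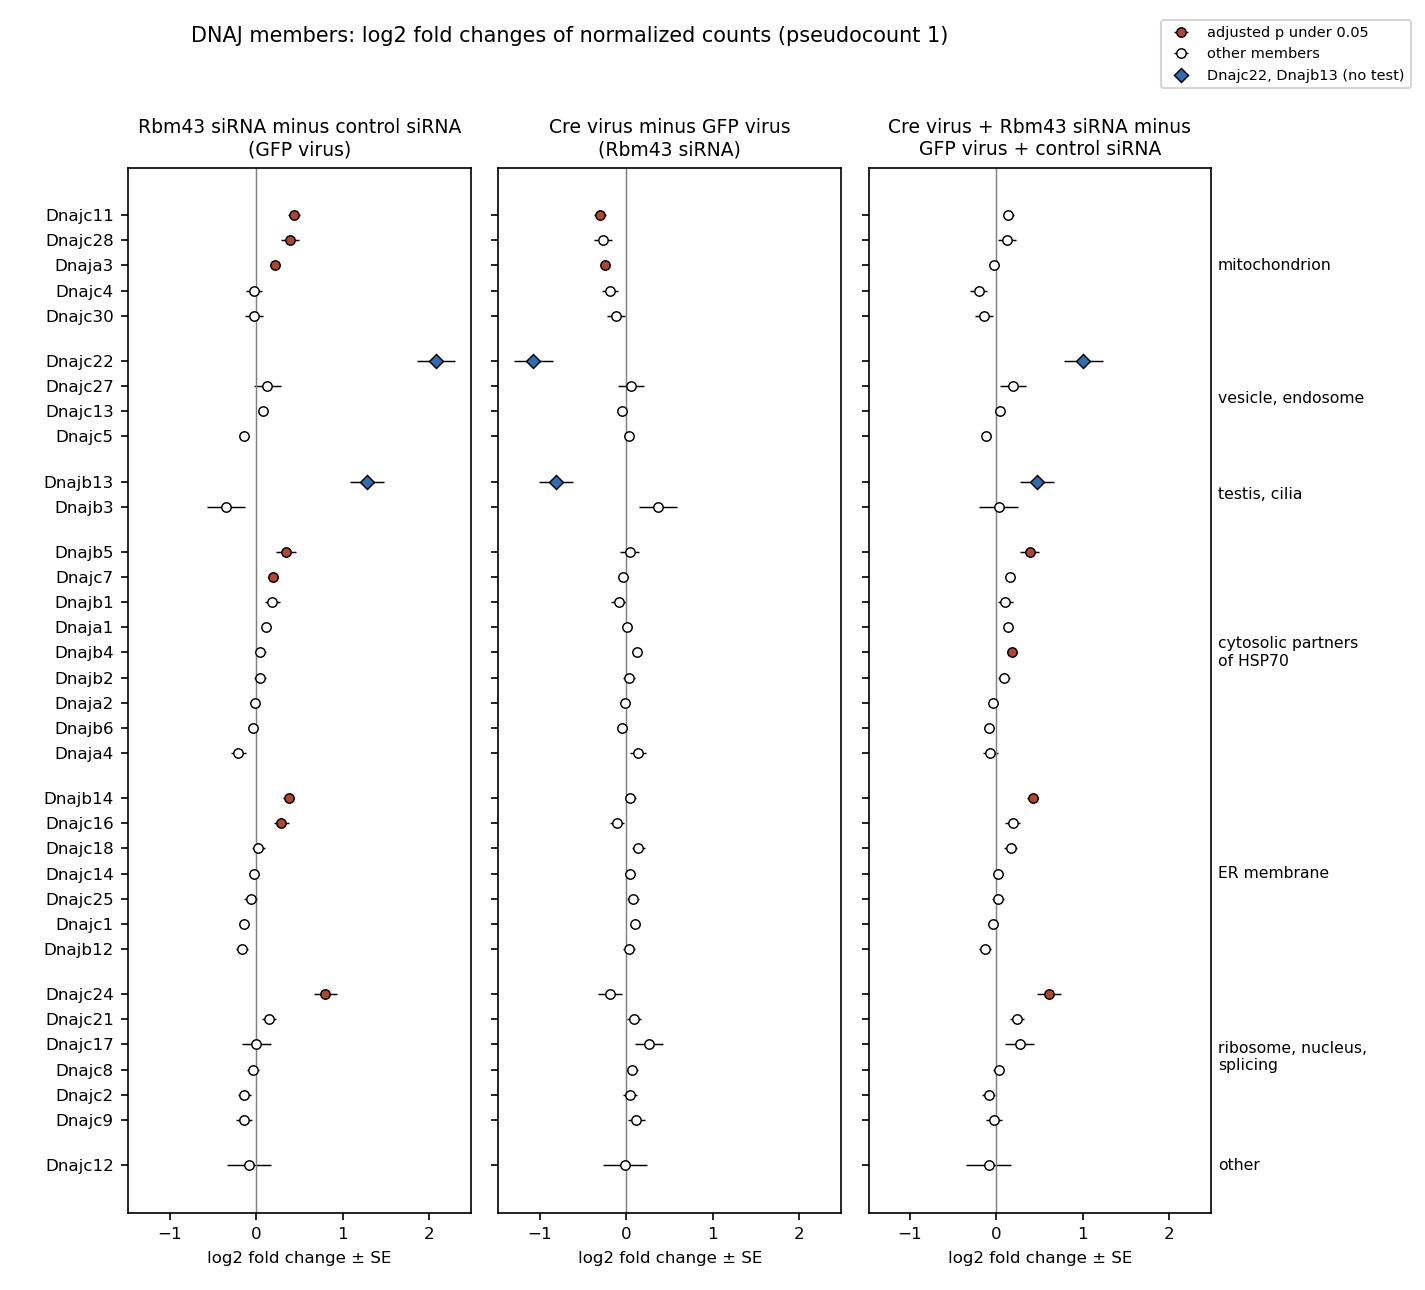
Log2 fold change ± SE of each member on the log2(normalized count + 1) scale in the 3 comparisons, with members grouped by role. Filled circles passed an adjusted p under 0.05, and diamonds mark Dnajc22 and Dnajb13, which are described without a test. In the middle panel the 5 mitochondrial members all lie below 0, at −0.30 to −0.12.

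Mitochondrial members made up 3 of the 8. Dnajc11, an outer membrane protein tied to cristae, had counts of 1321 and 1358 with Rbm43 siRNA, against 1052 and 925 with control siRNA, a log2 fold change of 0.44 ± 0.07 (SE, adjusted p = 5.34e-05). Dnaja3, the class A partner of HSP70 in the matrix, had 1885 and 1851, against 1602 and 1612, a change of 0.22 ± 0.05 (adjusted p = 0.00551). Dnajc28 had 284 and 263, against 219.5 and 197, a change of 0.39 ± 0.10 (adjusted p = 0.00963). In all 3 genes both libraries with Rbm43 siRNA lay above both with control siRNA, as in 29.2% of all genes. Dnajc4 (−0.02) and Dnajc30 (−0.03), the second a protein of respiratory chain upkeep, were not called, and their groups overlapped. Over the 5 members of this role the median was 0.22. The call of Dnaja3 was lost without GFP virus and Rbm43 siRNA replicate 1 (0.20, adjusted p = 0.0526), and that of Dnajc28 without the same library (0.34, adjusted p = 0.101) or without GFP virus and control siRNA replicate 2 (0.31, adjusted p = 0.0554).

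Dnajc24, which serves the diphthamide modification of elongation factor 2, had the widest difference among the 32 other members. Its counts were 205 and 188 with Rbm43 siRNA, against 128 and 98.6 with control siRNA. The log2 fold change was 0.80 ± 0.14 (adjusted p = 0.00022) and the groups did not overlap. The other 5 members of the ribosome, nucleus and splicing were not called. They were Dnajc2 of the ribosome (−0.13), Dnajc21 of ribosome assembly (0.15), the splicing-associated Dnajc8 (−0.04) and Dnajc17 (0.00), and Dnajc9, a histone chaperone (−0.14).

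At the endoplasmic reticulum membrane, 2 of 7 members rose. Dnajb14, which works beside Dnajb12 in the disposal of misfolded membrane proteins, had 876 and 912 with Rbm43 siRNA, against 696 and 682 with control siRNA (0.38 ± 0.06, adjusted p = 0.000206). Dnajb12 itself had 559 and 554, against 621 and 624 (−0.16 ± 0.07, adjusted p = 0.111), so the groups of this related pair lay on opposite sides, and Dnajb12 was not called. Dnajc16 had 508 and 479, against 424 and 381 (0.29 ± 0.08, adjusted p = 0.0141). Dnajc1, Dnajc14, Dnajc18 and Dnajc25 lay between −0.14 and 0.03 and were not called. The call of Dnajc16 was lost without GFP virus and Rbm43 siRNA replicate 1 (0.25, adjusted p = 0.127) and without GFP virus and control siRNA replicate 2 (0.22, adjusted p = 0.0810).

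Of the 9 cytosolic partners of HSP70, 2 rose. Dnajb5, a close relative of the heat-inducible Dnajb1, had 363 and 298 with Rbm43 siRNA, against 286 and 234 with control siRNA (0.35 ± 0.11, adjusted p = 0.0310). Dnajc7, which binds both HSP70 and HSP90, had 1489 and 1475, against 1309 and 1283 (0.19 ± 0.05, adjusted p = 0.0149). In both genes the groups did not overlap, but the 2 libraries with Rbm43 siRNA stood farther apart for Dnajb5. The abundant class A members Dnaja1 (0.12) and Dnaja2 (−0.02) were not called, nor were Dnaja4 (−0.21), Dnajb1 (0.19), Dnajb2 (0.05), Dnajb4 (0.05) and the anti-aggregation factor Dnajb6 (−0.03). Dnajc7 was not called without GFP virus and Rbm43 siRNA replicate 1 (adjusted p = 0.0876) or replicate 2 (adjusted p = 0.0684). Dnajb5 was not called without GFP virus and control siRNA replicate 2 (0.20, adjusted p = 0.220), GFP virus and Rbm43 siRNA replicate 1 (0.20, adjusted p = 0.344), or either Cre virus library (adjusted p = 0.0686).

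Dnajc22, a multi-pass membrane protein whose fly relative Wurst acts in clathrin-mediated endocytosis, had the lowest counts with control siRNA of the 34 members. It had 66.6 and 43.9 with Cre virus and Rbm43 siRNA, 112 and 118 with GFP virus and Rbm43 siRNA, and 22.9 and 30.4 with GFP virus and control siRNA. These counts rest on 68 and 50, 115 and 127, and 22 and 25 reads. The 3 groups did not overlap, and the group with both treatments lay between the other groups. On the log2(normalized count + 1) scale the difference was 2.08 between Rbm43 and control siRNA with GFP virus, −1.07 between Cre and GFP virus with Rbm43 siRNA, and 1.01 between both treatments and neither. The 2 Cre libraries differed from each other more than the replicates of the other groups (SD 16 over a mean of 55.2, n = 2). The other vesicle and endosome members moved little in the comparison of siRNAs: Dnajc13 of endosome sorting by 0.08, Dnajc27 by 0.13 and Dnajc5 by −0.15 (adjusted p = 0.0512). Dnajc5 was called lower by limma at a count minimum of 50 (adjusted p = 0.0458) and with a pseudocount of 5 (0.0496). It was also called lower with total-count (0.0227), upper-quartile (0.0164) and quantile scaling (0.0125).

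Dnajb13, a protein of sperm flagella and the radial spokes of motile cilia, had 55.8 and 45.7 with Cre virus and Rbm43 siRNA, 86.4 and 92.3 with GFP virus and Rbm43 siRNA, and 38.5 and 34.1 with GFP virus and control siRNA. The reads behind these were 57 and 52, 89 and 99, and 37 and 28. Again the groups were apart and in the same order, with differences of 1.28, −0.81 and 0.47 in the same 3 comparisons. The summed counts of motile cilia and sperm tail markers were 82.6 to 88.1, 74.8 to 98.9, and 71.8 to 81.1 in the 3 groups, and 0 of the 4 tested were called by limma in any comparison (8 of the 10 are in the table under their symbols). Dnah5, a motor of motile cilia, was at 0 in every library with GFP virus. Dnajb3, the other testis member above the minimum, had 38.8 and 48.5 with Rbm43 siRNA, against 45.8 and 66.9 with control siRNA (−0.34 ± 0.22), and was not called.

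**Figure D3:**
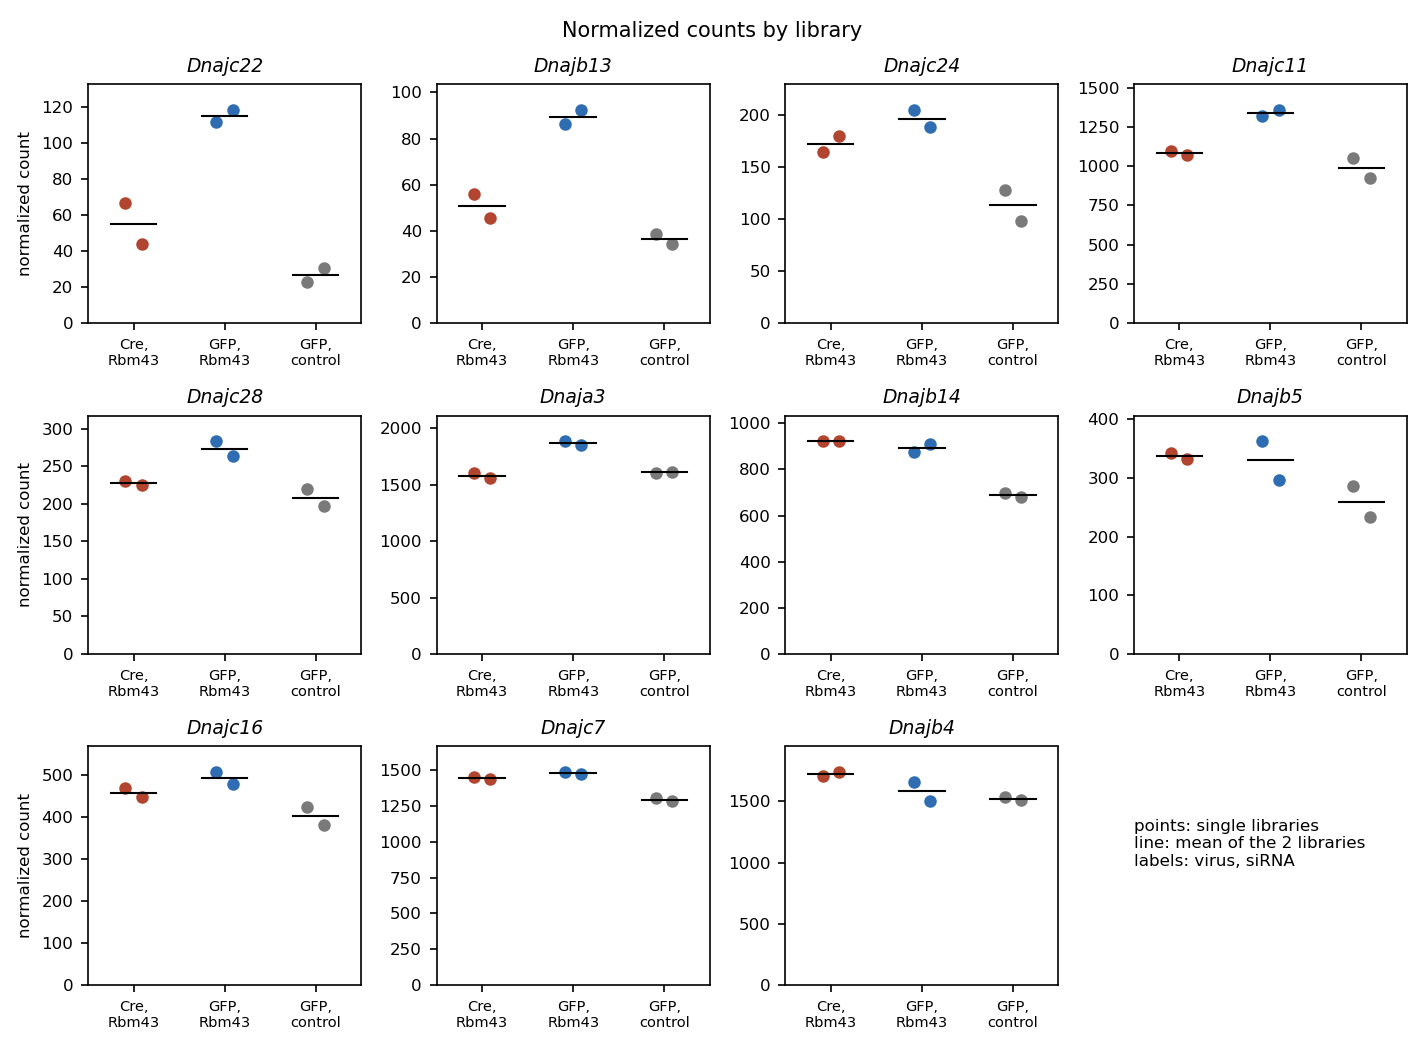
Normalized counts by library (linear axes from 0) for Dnajc22, Dnajb13 and the 9 members called in at least 1 comparison, with bars at the mean of the 2 libraries. In Dnajc22 and Dnajb13 the group with GFP virus and Rbm43 siRNA is highest (112 and 118, 86.4 and 92.3), and in Dnajb14 both groups with Rbm43 siRNA lie above control siRNA.

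The second comparison set Cre virus against GFP virus, both with Rbm43 siRNA, and asks what changed in the family when the floxed Ppargc1a gene was targeted. Its GFP virus libraries also served the first comparison, so values of the 2 comparisons are given side by side without a test of their relation. Of the 32 members counted, 2 were called lower and 0 higher, or 6.25%. Among all genes tested 8.50% were called, 5.88% lower and 2.62% higher. Groups did not overlap for 13 of the 32 that lay above and 9 that lay below, and in 53.7% of all genes, 26.2% above and 27.5% below. The 2 called members were mitochondrial. Dnajc11 had 1100.2 and 1072 with Cre virus, against 1321 and 1358 with GFP virus (−0.30 ± 0.07, limma adjusted p = 0.00559). Dnaja3 had 1601 and 1555, against 1885 and 1851 (−0.24 ± 0.05, adjusted p = 0.00592). Dnajc28 (−0.26 ± 0.10, adjusted p = 0.141), Dnajc4 (−0.18) and Dnajc30 (−0.12) were also below 0 and were not called. The median was −0.24 for the 5 mitochondrial members, 0.03 for all 34 members and 0.002 for all genes tested. The remaining 27 members, outside this role and without Dnajc22 and Dnajb13, ranged from −0.19 (Dnajc24) to 0.37 (Dnajb3).

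These calls were sensitive to single libraries. Dnaja3 was not called without Cre virus replicate 1 (−0.26, adjusted p = 0.0841) or replicate 2 (−0.22, adjusted p = 0.156), or without GFP virus and Rbm43 siRNA replicate 1 (−0.23, adjusted p = 0.0566). Dnajc11 was not called without Cre virus replicate 1 (−0.32, adjusted p = 0.0893) or replicate 2 (−0.28, adjusted p = 0.142), or without GFP virus and Rbm43 siRNA replicate 2 (−0.28, adjusted p = 0.0816). The count of members called by limma fell to 0 without either Cre virus library (where 2 had an unadjusted p under 0.05 in each case), and to 1 without either library of GFP virus with Rbm43 siRNA. With all 6 libraries edgeR and DESeq2 also called 2. Limma without its mean-variance trend called 0 members and 0 of the 14211 genes tested, where 4 members and 2355 genes had an unadjusted p under 0.05.

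The third comparison set cells with both treatments (Cre virus, Rbm43 siRNA) against cells with neither (GFP virus, control siRNA), and it shares libraries with each comparison above. Of the 32 members counted, 4 were called higher and 0 lower, or 12.5%, against 14.7% of all genes (8.47% higher, 6.28% lower). Dnajc24 had 164 and 180.1 with both treatments, against 128 and 98.6 with neither (0.61 ± 0.14, limma adjusted p = 0.00432). Dnajb14 had 923 and 922, against 696 and 682 (0.42 ± 0.06, adjusted p = 0.00011). Dnajb5 had 343 and 333, against 286 and 234 (0.38 ± 0.11, adjusted p = 0.0252). Dnajb4, a cytosolic class B member, had 1705 and 1740.0, against 1532 and 1515 (0.18 ± 0.06, adjusted p = 0.0489). In these 4 genes the groups did not overlap, as for 13 of the 32 members above and 9 below in all, and for 54.6% of all genes (27.4% above, 27.2% below). No mitochondrial member was called, and the 5 ranged from −0.21 to 0.14: Dnaja3 had 1601 and 1555, against 1602 and 1612, and Dnajc11 had 1100.2 and 1072, against 1052 and 925. The median over the 32 members was 0.03, and over all genes −0.002.

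Among these calls that of Dnajb14 held under every alternative run, in this comparison and in the first, while 2 members were called without Cre virus replicate 1, 1 without its replicate 2 and 10 without GFP virus and control siRNA replicate 1. Dnajc24 was not called without Cre virus replicate 2 (0.55, adjusted p = 0.0965). Dnajb5 and Dnajb4 were not called without Cre virus replicate 1 (adjusted p = 0.213 and 0.224), Cre virus replicate 2 (0.149 and 0.304) or GFP virus and control siRNA replicate 2 (0.162 and 0.0597).

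The HSP70 chaperones and exchange factors that the family works with were examined as a list, with 24 of 25 tested. With Rbm43 siRNA 5 rose and 6 fell, with Cre virus 2 rose and 2 fell, and in the third comparison 2 rose and 4 fell. Among all genes tested 23.2%, 8.50% and 14.7% were called in these comparisons. In the mitochondrion, where Dnaja3 works, the exchange factor Grpel1 had 2379.5 and 2372 with Cre virus and Rbm43 siRNA, 3231 and 3269.5 with GFP virus and Rbm43 siRNA, and 2351 and 2215 with GFP virus and control siRNA. It rose in the comparison of siRNAs (0.51 ± 0.05, limma adjusted p = 5.02e-07) and fell in that of viruses (−0.45 ± 0.05, adjusted p = 1.77e-05). Hspa9, the HSP70 of the matrix, rose with Rbm43 siRNA (0.28 ± 0.04, adjusted p = 0.000119) and fell with Cre virus (−0.18 ± 0.04, adjusted p = 0.0154). The endoplasmic reticulum HSP70 Hspa5 had 18542 and 19141, 17738 and 17567, and 22851 and 24313 in the same groups, a fall of −0.42 ± 0.05 with Rbm43 siRNA (adjusted p = 2.31e-06) and of −0.32 ± 0.05 in the third comparison (adjusted p = 8.07e-05). Its exchange factor Hyou1 fell with Rbm43 siRNA (−0.28 ± 0.05, adjusted p = 0.000416) and rose with Cre virus (0.20 ± 0.05, adjusted p = 0.0200). Bag2, a cytosolic exchange factor, rose with Cre virus (0.27 ± 0.08, adjusted p = 0.0484). Hspa12a, Hspa8 and Hspa1b fell with Rbm43 siRNA (−0.30, −0.16 and −0.29, limma adjusted p = 0.0030, 0.0285 and 0.0173). Those calls were lost in limma without its mean-variance trend (adjusted p = 0.0594, 0.201 and 0.1245). With Cre virus the 3 genes were not called (0.01, −0.05 and 0.003). In the third comparison they fell by 0.30, 0.21 and 0.29 on the log2 scale (limma adjusted p = 0.00568, 0.00705 and 0.0272). Without Cre virus replicate 1 these 3 calls were lost (adjusted p = 0.140 to 0.281), those of Hspa8 and Hspa1b also without replicate 2 (0.0787 and 0.100), and that of Hspa1b without GFP virus and control siRNA replicate 1 (0.178). The call of Bag2 was lost without any 1 of the 4 libraries compared (adjusted p = 0.0848 to 0.434).

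Of 20 HSP90 chaperones and co-chaperones, 2 rose and 2 fell with Rbm43 siRNA, 0 rose and 1 fell with Cre virus, and 1 rose and 1 fell in the third comparison. The shares of all genes called, 23.2%, 8.50% and 14.7%, stand beside these counts and those of the chaperonins below. St13, which holds HSP70 in its client-bound state, rose with Rbm43 siRNA (0.41 ± 0.05, adjusted p = 2.31e-06) and in the third comparison (0.33 ± 0.05, adjusted p = 6.30e-05). Trap1, the mitochondrial HSP90, rose with Rbm43 siRNA (0.21 ± 0.05, adjusted p = 0.00525) and fell with Cre virus (−0.23 ± 0.05, adjusted p = 0.00615). Hsp90b1 of the endoplasmic reticulum fell with Rbm43 siRNA (−0.33 ± 0.05, adjusted p = 3.02e-05), as did cytosolic Hsp90ab1 (−0.18 ± 0.05, adjusted p = 0.00690). Of 17 chaperonins, 2 rose and 1 fell with Rbm43 siRNA, and 2 fell with Cre virus. The mitochondrial pair Hspd1 and Hspe1 rose with Rbm43 siRNA (0.23 ± 0.05 and 0.28 ± 0.07) and fell with Cre virus (−0.24 ± 0.05 and −0.22 ± 0.07), and the cytosolic Cct2 fell with Rbm43 siRNA (−0.17 ± 0.05). The call of Hspe1 with Cre virus was lost by upper-quartile (limma adjusted p = 0.0565), total-count (0.0763) and quantile scaling (0.0761). It was also lost without a filter (limma adjusted p = 0.208) and with DESeq2 (adjusted p = 0.0618). With Cre virus, the calls of Hspa9, Hyou1, Trap1, Hspd1 and Hspe1 were each lost without either Cre library (adjusted p = 0.0697 to 0.368). Those of Hspa9 (adjusted p = 0.0540 and 0.114) and Hspe1 (0.0752 and 0.330) were also lost without either library of GFP virus with Rbm43 siRNA, that of Trap1 without its replicate 1 (0.0553) and its replicate 2, and those of Hspd1 and Hyou1 without its replicate 2 (0.0570 and 0.256). The calls of Grpel1 and Hspb7 held without any 1 library. With Rbm43 siRNA those of Hspe1 and Cct2 were lost without GFP virus and Rbm43 siRNA replicate 2 (adjusted p = 0.0657 and 0.109).

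Of 6 small heat shock proteins tested, Hspb7, abundant in heart and muscle, fell with Rbm43 siRNA (−0.41 ± 0.06, adjusted p = 7.39e-05) and rose with Cre virus (0.37 ± 0.06, adjusted p = 0.000828), and 0 of the other 5 were called. Of 16 genes of the heat shock response, a list that shares members with those above, 2 rose and 3 fell with Rbm43 siRNA, 2 fell with Cre virus, and 2 fell in the third comparison. The 2 that rose were Hspd1 and Hspe1. The 4 J-domain proteins with other symbols that were tested had 0 calls in every comparison. Each of these counts stands beside the background of 23.2%, 8.50% and 14.7% of all genes called.

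**Figure D4:**
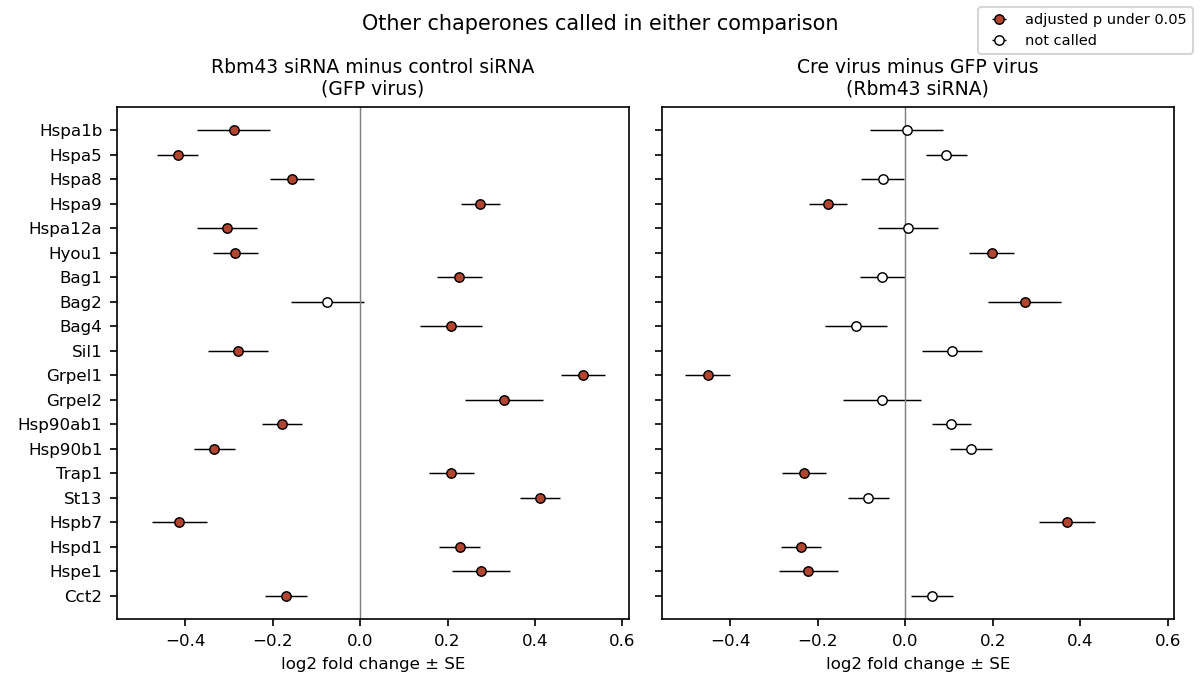
Log2 fold change ± SE of the 20 other chaperones and cofactors called in the comparison of siRNAs (left) or of viruses (right), filled where the adjusted p was under 0.05. Grpel1, Hspa9, Trap1, Hspd1 and Hspe1 are filled above 0 on the left and below 0 on the right, Grpel2, St13, Bag1 and Bag4 have the same signs but are not called on the right, and both panels use the GFP virus libraries that had Rbm43 siRNA.

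The 34 members lie on 16 chromosomes, with 6 on chromosome 4. The exons of 11 members overlap those of another protein-coding gene, 10 of them on the opposite strand. Of the 9 members called in some comparison, Dnaja3 and Dnajc7 have such an overlap, as does Dnajb13. The library kit marked strand, but the strand setting of the counting is not given in the sources used here. Reads of these genes and of neighbours on the opposite strand may therefore not be told apart. Dnaja3 also overlaps Vasn on its own strand, where no strand setting separates reads. Vasn was not called with Rbm43 siRNA (−0.17, limma adjusted p = 0.144) or Cre virus (0.20, adjusted p = 0.155). Coro7, opposite Dnaja3, was not called in these comparisons either (−0.11 and −0.21) but fell in the third (−0.32, adjusted p = 0.0404). Dnajc7 overlaps Nkiras2 on the opposite strand, which rose with Rbm43 siRNA (0.32, adjusted p = 0.00128).

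Dnajb13 (chr7:100501716-100514960, minus strand) overlaps Ucp2, an uncoupling protein of the inner mitochondrial membrane, on the opposite strand, and Ucp3 lies 15284 bases from it. These neighbours were looked at after their values were seen. Ucp2 had 1387 and 1314 with Cre virus and Rbm43 siRNA, 1666 and 1585 with GFP virus and Rbm43 siRNA, and 1804 and 1513 with GFP virus and control siRNA. It was not called with Rbm43 siRNA (−0.02 ± 0.07) and fell with Cre virus (−0.27 ± 0.07, adjusted p = 0.0207), a call lost without any 1 library of those groups (adjusted p = 0.0709 to 0.311). In the third comparison it fell too (−0.29 ± 0.07, adjusted p = 0.00765), a call lost without either Cre virus library (adjusted p = 0.0656 and 0.159) and without GFP virus and control siRNA replicate 1 (−0.16, adjusted p = 0.0571). Ucp3 had 159.6 and 154, 183 and 183, and 105 and 96.2 in the same groups. It rose with Rbm43 siRNA (0.86 ± 0.12, adjusted p = 4.30e-05) and in the third comparison (0.63 ± 0.12, adjusted p = 0.00152), and was not called with Cre virus (−0.22 ± 0.12). Coa4, an assembly factor of cytochrome oxidase 22111 bases away, rose with Rbm43 siRNA (0.60 ± 0.15, adjusted p = 0.00672), a call lost without GFP virus and Rbm43 siRNA replicate 1 (0.56, adjusted p = 0.0626). C2cd3 and Mrpl48, farther out, were not called. Next to Dnajc22 (chr15:99093170-99104737, plus strand), the tested neighbours Spats2 and Troap were not called in any comparison.

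**Figure D5:**
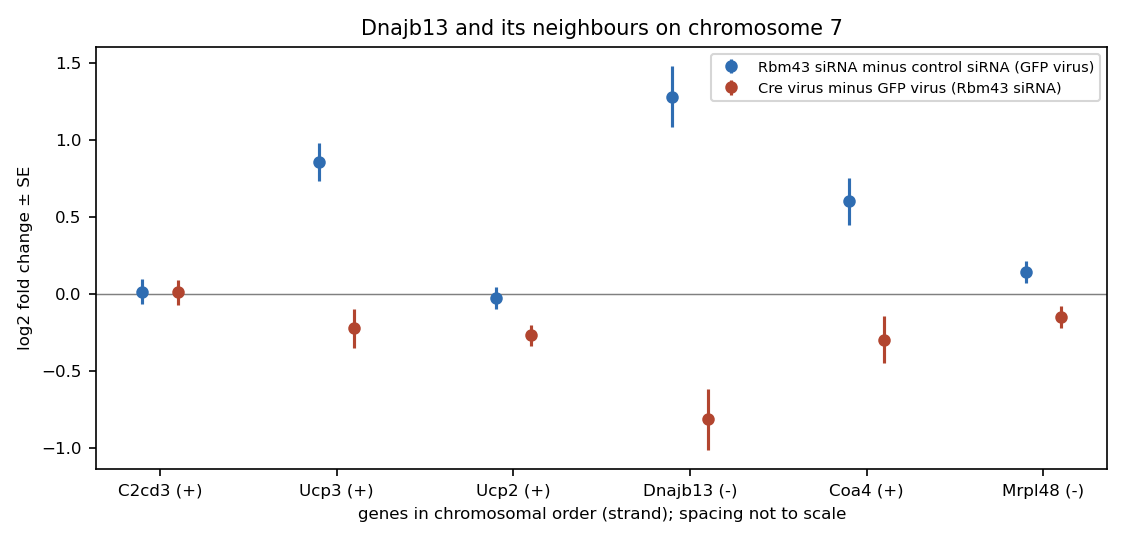
Log2 fold change ± SE of Dnajb13 and the genes around it on chromosome 7, in chromosomal order with spacing not to scale, for Rbm43 against control siRNA and for Cre against GFP virus. Dnajb13 lies at 1.28 and −0.81, and Ucp2, whose exons it overlaps, at −0.02 and −0.27.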

How the data were processed

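RNA was sequenced from stranded mRNA libraries, 2 for each of 3 groups. The deposited values are a normalized signal: each is a whole number of reads (within 0.01 read, for 100% of values) scaled by a factor of its library. Tools named in the submitters' processing notes are DESeq2 2.11.40.7, STAR 2.7.8 and fastp 0.23.2, with the mm10 build. The sources used here do not give the counter, its strand setting or the annotation. No value column was left unused.

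Group means were fitted to log2(normalized count + 1) in all 6 libraries with limma 3.58.1 under R 4.3.3 (mean-variance trend; 3 residual degrees of freedom). P-values were adjusted by Benjamini-Hochberg over 14211 genes reaching a count of 10 in 2 or more libraries, with calls under 0.05. This scale understates changes of low genes. The fit was checked on simulated data that gave all genes and groups the same dispersion. That check does not cover groups of unequal spread. Alternatives were pseudocounts of 0.5 and 5, other filters and scalings, a replicate block, each library left out, and, on whole reads recovered from the values, DESeq2 1.42.0 or edgeR 4.0.16. Exon lengths, positions and overlaps came from GENCODE M21, and promoters from RefSeq. Members, roles and lists were chosen with earlier results of these data known. Values per library are given for called members. Each list of partner chaperones names up to 4 called genes per comparison, by smallest p. Genes named that way may also have values from another comparison.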

Additional observations from a re-analysis of the deposited data

How the results depend on the processing

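The 20 member results (each fold change called in some comparison, and both earlier chosen genes in all 3) were recomputed under 18 alternatives. All 360 values kept their direction. Of these, 108 belong to Dnajc22 and Dnajb13, which have no test, and 46 of the other 252 missed the threshold. The 46 results of other genes gave 828 values, of which 0 reversed and 139 missed the threshold. Filters, the replicate block and the trend setting leave a fold change as it is. The groups of the member results also did not overlap, so leaving out 1 library could not reverse them. Kept directions are therefore little support. The numbers of called members (Rbm43 siRNA, Cre virus, both treatments), without Dnajc22 and Dnajb13, were 8, 2 and 4. Without a filter, with more genes tested, the number was 2 for both. Without a mean-variance trend the numbers were 3, 0 and 1, and with DESeq2 4, 2 and 2. At the 0 from limma, 4 members had an unadjusted p under 0.05, and edgeR called 2. Genes called in the whole table numbered 609 (Cre virus) and 1251 (both) without a filter, 2083 (Cre virus) in a fit of only the 2 groups, 1304, 0 and 433 without the trend (2355 at an unadjusted p under 0.05 at the 0), and 2035 (Rbm43 siRNA) and 1220 (both) with DESeq2. Leaving out each library gave 3 to 12, 0 to 2 and 1 to 10 members, and 2115 to 3633, 312 to 2068 and 770 to 2654 genes. The cause was not tested. A lone library left in a group was assumed to vary like the other groups. Scaling moved the split of higher and lower genes: with Rbm43 siRNA 1603 and 1861 by upper quartile, against 1914 and 1387, and with Cre virus 565 and 734 by total count, against 372 and 836. Replicate numbers did not pair the libraries (correlations of deviations −0.037, −0.042 and 0.019). A fit with the replicate block called 8, 2 and 4 members and 3412, 1304 and 2214 genes. With 22 to 127 reads per library, Dnajc22 and Dnajb13 are the members whose values counting limits most, beside Dnajc12 and Dnajb3.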
